A study of Mus musculus with 2 samples.

Results

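Plexus endothelial cells were taken as the cells of the sorted fraction that carried the endothelial gene Cdh5 and more UMIs (unique molecular identifiers, 1 per captured transcript) of Kitl, Esm1, Igfbp3 and Vwa1 together than of the arterial genes Tmem100, Htra1 and Ltbp4 together. A member also had Cdh5 at 100 CPM (counts per 1000000 UMIs of that cell) or more, C1qa, C1qb and C1qc summing to less than 500 CPM, Gfi1 or Neurl3 at 0 UMIs, and fewer than 2 UMIs of Nr2f2. Of the 2139 cells in the series, 835 reached the Cdh5 limit and 251 met the whole rule. The rule used the expression values of 14 genes, so the levels of those genes are given as a description. They stayed in the fits over all genes, but their own tests are not read.

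The study asked what becomes of endothelial and blood-forming cells when the nuclear factor gene Nupr1 is deleted in endothelium. Cells that stained for CD31 and CD44 were sorted from the caudal part of E10 mouse embryos and sequenced by droplet RNA-seq in 2 replicates. The conditional knockout (cKO) embryos were Vec-Cre;Nupr1 fl/fl, and the controls were littermates of genotype Nupr1 fl/fl or Nupr1 fl/+, pooled under 1 label. Vec-Cre is driven by the promoter of Cdh5, the gene that also opens the gate used here, so cells of both genotypes entered only if they transcribed it. Each replicate was a single pool in which a hashtag, WT or KO, marked the genotype of a cell, and the embryo a cell came from is not recorded. This gives 4 sources, and sets of 4 values below are always in the order control replicate 1, control replicate 2, cKO replicate 1 and cKO replicate 2.

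The caudal part at this stage holds the dorsal aorta, the veins and the capillary plexus that links them. Plexus endothelium sprouts under VEGF and Notch signalling, and the tip cells of its sprouts are known for Esm1, Apln, Cxcr4 and Unc5b, while arterial cells are known for Gja4, Gja5 and Hey1 and venous cells for Nr2f2. Kitl encodes the ligand of the receptor Kit, which blood stem and progenitor cells carry, and is one of the factors a vascular niche supplies to them. Esm1 encodes a secreted proteoglycan that VEGF induces, Igfbp3 and Igfbp7 encode secreted proteins of the insulin-like growth factor binding family, Vwa1 encodes a matrix protein, and Slc2a1 encodes the glucose transporter GLUT1.

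The genes that set the gate are shown with the reference sequence before their starts, because the members were chosen by transcription of these genes together (RefSeq starts, GRCm38.p6, gene strand, 5′ to 3′). Capitals mark TATAAA or GGAAG, the core that ETS factors such as Erg and Fli1 bind, on either strand. For Kitl (chr10:100015630-100100416 in GENCODE M21, plus strand) the 30 bases are chr10:100015791-100015820. They are all that is shown, because GENCODE starts the gene upstream of them. Esm1 is given over chr13:113209409-113209658 (plus strand) and Igfbp3 over chr11:7213924-7214173 (minus strand).
Kitl: agctgTATAAAaagcgctggcggcgcagca
Esm1: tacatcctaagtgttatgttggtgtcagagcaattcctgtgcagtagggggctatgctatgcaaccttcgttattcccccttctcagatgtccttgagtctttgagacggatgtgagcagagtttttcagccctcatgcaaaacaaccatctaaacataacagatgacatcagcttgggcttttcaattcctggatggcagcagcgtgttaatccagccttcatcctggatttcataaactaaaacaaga
Igfbp3: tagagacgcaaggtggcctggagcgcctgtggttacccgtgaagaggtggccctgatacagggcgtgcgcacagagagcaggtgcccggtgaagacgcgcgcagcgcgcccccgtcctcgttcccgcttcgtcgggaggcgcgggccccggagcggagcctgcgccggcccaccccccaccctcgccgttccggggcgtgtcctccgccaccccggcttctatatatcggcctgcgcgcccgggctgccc
The 250 bases before the RefSeq start of Kitl held 1 TATAAA, 3 GGAAG and 3 GGGCGG (a GC box), whereas those of Esm1 and Igfbp3 held none of these. In all 32851 RefSeq promoters, 12.4% held TATAAA, 64.1% held GGAAG and 32.7% held GGGCGG in the same window on either strand. No ACGTG (the core of the hypoxia response element) or CACGTG, which contains it, was found for the 3 genes, against 16.6% and 6.02% of all promoters. These matches describe letters and were not tested as binding sites.

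Within the gate, the members' score exceeded the arterial score by a median of 18 UMIs. At its edge, 9 members exceeded it by 1 UMI, and 11 cells with tied scores above 0 and 13 cells that fell short by 1 UMI were left out. Among members, Cdh5 ranged from 154 to 3292 CPM with a median of 899, and the highest value under the limit in the series was 99.5. A single Nr2f2 UMI was present in 30 members, and 78 cells that passed the scores were kept out by Nr2f2 alone, 19 of them with 2 UMIs. The limits therefore cut through a range of values. Nothing in the files gives a cell's position, so the name plexus rests on the markers alone.

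**Figure D1:**
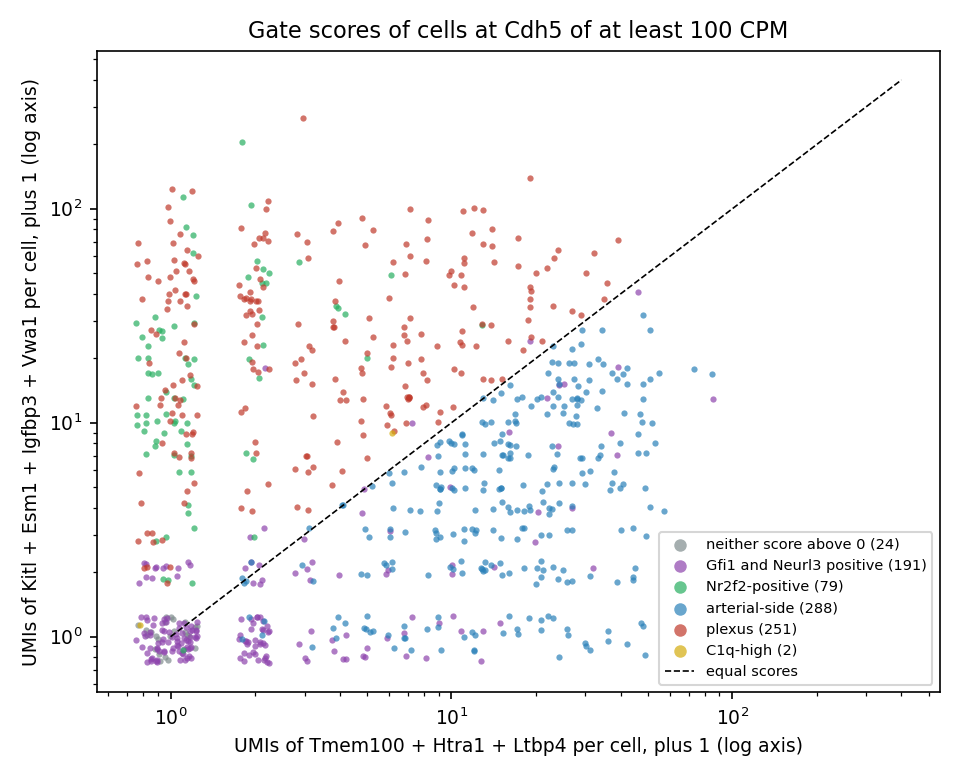
Gate scores of the 835 cells at Cdh5 of at least 100 CPM, with the summed UMIs of Tmem100, Htra1 and Ltbp4 on the x axis and those of Kitl, Esm1, Igfbp3 and Vwa1 on the y axis (both plus 1, log axes, points shifted slightly at random so that ties show). Each point is a cell and colours mark the classes; the 251 plexus cells lie above the dashed line, mixed there with the 78 cells that only Nr2f2 kept out, 18 that only Gfi1 and Neurl3 kept out, and a C1q-high cell.

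Igfbp3 carried the gate in more cells than the other 3 genes of the score. Its UMIs outnumbered those of Kitl, Esm1 and Vwa1 together in 173 of the 251 members, and 151 members stayed above the arterial score without it. To compare detection at 1 depth, each cell was thinned to 6000 UMIs, which 242 members reached. Igfbp3 was then detected in 81.4% of them (exact binomial 95% interval 75.9 to 86.1), Kitl in 43.8% (37.5 to 50.3), Esm1 in 28.5% (22.9 to 34.6) and Vwa1 in 28.1% (22.5 to 34.2). Intervals here and below cover counting error only. Before thinning the shares over all 251 members were 94.8%, 75.3%, 44.6% and 47.8%. Both namesake genes, Kitl and Esm1, were thus seen in a minority of thinned members, and 79 of the 242 showed Igfbp3 alone while 15 showed all 4 genes. In the 1304 cells below the Cdh5 limit, taken as background for these endothelial genes, thinned shares were 0.464% for Igfbp3, 1.39% for Kitl, 0 of 1294 for Esm1 (exact interval up to 0.285%) and 0.155% for Vwa1. Median depth was 28779 UMIs in members and 66795 in those cells.

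The level of every given marker was higher in members than in arterial-side cells in each source. Kitl summed over members to 136, 109, 183 and 139 CPM in the 4 sources, against 17.4, 16.8, 9.86 and 20.1 CPM in the 288 cells whose arterial score was the higher (called arterial-side cells). The 79 cells with 2 or more Nr2f2 UMIs (Nr2f2-positive cells) were close behind members, at 102, 89.3, 90.2 and 71.4 CPM. Esm1 was at 133, 136, 123 and 94.6 CPM in members. In arterial-side cells it was at 0.513, 6.62, 2.69 and 8.14 CPM, and in Nr2f2-positive cells at 4.75, 18.1, 21.0 and 15.0 CPM. The mean Esm1 level in members was 27.1 times that of arterial-side cells and 8.28 times that of Nr2f2-positive cells, and the mean Kitl level 8.81 and 1.60 times. Vwa1 had a mean of 132 ± 33.8 CPM (SD, n = 4 sources) in members, 51.1 ± 18.5 in Nr2f2-positive cells and 4.09 ± 4.68 in arterial-side cells. The 2 given markers that the rule did not use followed: Slc2a1 had a mean of 629 ± 121, 217 ± 68.6 and 67.4 ± 20.2 CPM in these classes in the same order, and Igfbp7 of 156 ± 24.3, 25.6 ± 16.3 and 39.2 ± 19.5 CPM. The rule itself set the separation of Kitl, Esm1, Igfbp3 and Vwa1 from arterial-side cells.

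**Figure D2:**
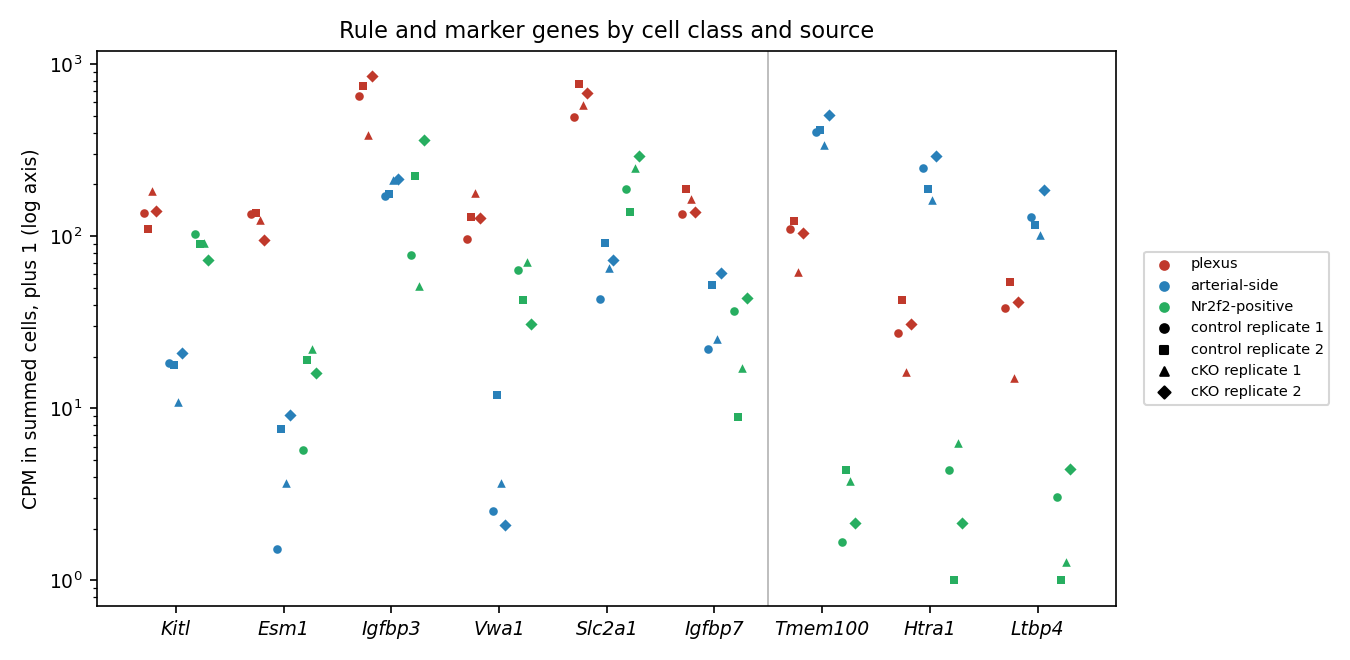
Level of the 6 given markers and the 3 arterial genes of the rule in summed cells (CPM plus 1, log axis) by class (colour) and source (symbol). Members exceed arterial-side cells in all 4 sources for the 6 genes on the left and fall below them for the 3 on the right; for Kitl the Nr2f2-positive cells, at 71.4 to 102 CPM, sit just under the members, at 109 to 183 CPM.

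Members numbered 61 and 46 in the control sources and 83 and 61 in the cKO sources, with median depths of 24108, 30553, 32551 and 30395 UMIs. Arterial-side cells had like depths (20312 to 25839), and Nr2f2-positive cells were deeper (50100 to 87825). The 2 replicates shared 0 cell barcodes. In cKO replicate 1, 74 of 83 members held UMIs of a chromosome Y gene (Ddx3y, Eif2s3y, Kdm5d or Uty), against 0 members in the other 3 sources. Xist was detected in 54 of 61, 45 of 46, 3 of 83 and 26 of 61 members. In replicate 1, therefore, the genotypes differed in chromosome Y transcripts, and in replicate 2 they did not. In replicate 2, Xist was detected in a smaller share of cKO than of control members. Nupr1 itself gave 2, 2, 0 and 0 UMIs in members, too few to check the label there. In the remaining cells at the Cdh5 limit it was at 21.5, 20.3, 1.03 and 3.26 CPM, lower in both cKO sources.

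The first comparison asked how members differ from arterial-side cells, the largest other class at the Cdh5 limit. Members had higher levels of 13 of 16 tested tip cell genes, 11 of 18 glycolysis genes and 8 of 18 barrier and Wnt genes, and lower levels of 9 of 20 matrix genes. UMIs were summed by class and source and tested by edgeR's quasi-likelihood method with the source as a block (adjusted p is by Benjamini-Hochberg throughout, log2 fold change ± SE). Of 9915 genes tested, 2017 (20.3%) were called at an adjusted p under 0.05, 1167 (11.8%) higher and 850 (8.57%) lower in members, and 1264 were called without cKO replicate 2. Because the rule split cells by genes that vary together with others, these calls describe the split and are no independent evidence of a cell type.

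Of the 16 tested genes of the tip cell and sprouting list, 13 were higher and 3 lower (median log2 fold change 1.34, against -0.01 over all genes tested). Of all genes, 11.8% were higher and 8.57% lower. The summed level of the list differed little between the classes. It was 2308, 3017, 2163 and 2933 CPM in members and 2192, 2760, 2108 and 2884 CPM in arterial-side cells. Adm, which encodes the vasoactive peptide adrenomedullin, was at 7.07, 21.5, 18.2 and 36.1 CPM in members and at 2.05, 0.883, 0 and 1.63 CPM in arterial-side cells (4.05 ± 0.42, edgeR adjusted p = 2.76e-06). Ramp3, part of a receptor for that peptide, was at 14.2, 16.4, 41.9 and 14.5 CPM against 0, 0.883, 2.69 and 0 CPM (4.74 ± 0.42, edgeR adjusted p = 2.96e-07). Kcne3, a potassium channel subunit, was at 6.43, 25.9, 50.0 and 36.9 CPM against 0.513, 0.441, 1.79 and 1.09 CPM (4.98 ± 0.34, edgeR adjusted p = 1.18e-08). For all 3 genes each source of members lay above every source of arterial-side cells, with control replicate 1 the lowest member source. Such a gap was found in 6.89% of the 9915 genes with members above, and in 8.9% with members below. Higher by less were Cxcr4, the receptor of Cxcl12 (1.35 ± 0.16), Pdgfb, which recruits pericytes (1.12 ± 0.10), and the guidance receptor Unc5b (0.79 ± 0.09). The 3 that were lower were Plvap, of endothelial fenestrae (-0.42 ± 0.05), Plaur, the urokinase receptor gene (-0.66 ± 0.15), and the integrin gene Itgb3 (-1.55 ± 0.28). Angpt2, a tip cell gene, was at 1.29 to 1.89 CPM in members and was too low to be tested.

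Outside that list, the apelin receptor gene Aplnr was at 22.5, 22.7, 49.3 and 18.0 CPM in members and at 0.513 to 2.21 CPM in arterial-side cells (4.08 ± 0.32, edgeR adjusted p = 6.21e-08), while Nr2f2-positive cells had 143 to 199 CPM. The transcriptional repressor gene Prdm1 was at 18.6, 21.5, 35.2 and 14.1 CPM in members and at 0 to 0.543 CPM in arterial-side cells (6.0 ± 0.46, edgeR adjusted p = 4.64e-08), the largest fitted increase. Arterial-side cells gave only 2 Prdm1 UMIs against 190 in members, a ratio of summed levels of 84 (exact 95% interval 22.9 to 699). Col15a1, a collagen of capillary basement membrane, was at 96.5, 53.7, 74.8 and 61.6 CPM against 3.26 to 7.06 CPM (3.84 ± 0.21). Rgcc (4.62 ± 0.46), Bik (4.02 ± 0.31), Tmem255a (3.80 ± 0.15) and the mechanosensitive channel gene Piezo2 (3.72 ± 0.28) completed the 10 genes named for the largest increase, with Adm, Kcne3 and Ramp3. In all 10 the lowest source of members lay above the highest source of arterial-side cells, which follows nearly from how they were chosen.

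The barrier and Wnt list holds genes of brain and other tight capillaries and of the Wnt pathway. Of 18 tested, 8 were higher and 1 lower (median 0.99), against 11.8% and 8.57% of all genes. Among those higher were the Wnt feedback gene Nkd1, at 41.8, 28.4, 77.8 and 14.5 CPM against 1.76 to 7.17 CPM (3.72 ± 0.26, edgeR adjusted p = 1.42e-08), the amino acid transporter gene Slc7a5 (3.29 ± 0.32), the Wnt effector gene Lef1 (2.45 ± 0.25) and the lipid transporter gene Mfsd2a (2.24 ± 0.35). Adgra2, a co-receptor of Wnt7, was the 1 lower (-0.81 ± 0.19). Levels of Lef1, Nkd1 and Slc7a5 were highest in cKO replicate 1 in members, and in Nr2f2-positive cells too. The transporter gene Slc38a5 had 0 UMIs in members.

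Of 18 glycolysis genes tested against arterial-side cells, 11 were higher in members and 0 lower (median 0.51), against 11.8% and 8.57% of all genes. Pkm, pyruvate kinase, was at 813, 838, 1236 and 933 CPM in members and at 368, 380, 402 and 349 CPM in arterial-side cells (1.40 ± 0.07, edgeR adjusted p = 3.63e-09). Gapdh (0.70 ± 0.07) and Ldha, which makes lactate (0.79 ± 0.06), were also higher. The glucose transporter gene Slc2a1, a given marker, moved with them as described above. Against Nr2f2-positive cells the count turned round, with 2 of 18 higher and 10 lower, against 17.3% and 17.2% of all genes. The list median was -0.36, with Pkm at -0.37 ± 0.07 and Ldha at -0.68 ± 0.09. With the gate applied to thinned cells Pkm no longer differed in that direction (0.06), nor did Aldoa (0.07) or Tpi1 (0.07).

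Arterial genes were also expressed by members. Of 20 tested against arterial-side cells, 3 were higher, 5 lower and 12 not called (median -0.11). Of all genes, 11.8% were higher and 8.57% lower. Gja4, encoding connexin 37, was at 1435, 1430, 746 and 1576 CPM in members and at 1230, 1573, 1083 and 1749 CPM in arterial-side cells (-0.07 ± 0.14, edgeR adjusted p = 0.798), with cKO replicate 1 lowest in both. The Notch ligand gene Dll4 differed by 0.22 ± 0.11 (edgeR adjusted p = 0.210) and the Notch target gene Hey1 was higher (0.37 ± 0.10, edgeR adjusted p = 0.0238). The related target gene Hey2 was lower, at 26.4, 21.5, 14.1 and 14.1 CPM against 83.1, 55.6, 86.0 and 64.6 CPM (-1.89 ± 0.18, edgeR adjusted p = 3.23e-06), as were Jag1, another Notch ligand gene (-1.49 ± 0.13), and Adgrg6 (-2.94 ± 0.16). Gja5, encoding connexin 40, was at 852, 696, 461 and 491 CPM against 1318, 766, 1437 and 855 CPM and was not called (-0.72 ± 0.31, edgeR adjusted p = 0.251).

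Matrix genes were called in both directions. Of 20 tested, 4 were higher (Col15a1, Nid2, Lama4 and Sparc) and 9 were lower, against 11.8% and 8.57% of all genes. The lower ones included Eln, encoding elastin, at 1.93, 2.53, 5.19 and 2.20 CPM against 40.0, 28.2, 40.3 and 53.2 CPM (-3.63 ± 0.26, edgeR adjusted p = 2.44e-08), and the elastic fibre genes Fbn1 (-2.12 ± 0.33) and Fbln5 (-3.57 ± 0.61). Fn1, encoding fibronectin, was at 460, 375, 322 and 328 CPM against 1149, 899, 970 and 906 CPM (-1.33 ± 0.06). The 10 genes named for the largest decrease were Acta2, the smooth muscle actin gene (-3.62 ± 0.19), Sfrp2 (-4.15 ± 0.33), Gkn3, P4ha3, Gas1, Mt3, Pde3a, Agr2, Adgrg6 and Eln. The mesenchyme and pericyte list, which holds Acta2, summed to 38.9 to 75.2 CPM in members and to 102 to 381 CPM in arterial-side cells. Its part in the lower matrix genes was not tested.

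Cdkn1c, which encodes the cell cycle inhibitor p57, was high in members at 2251, 2557, 1507 and 2089 CPM, against 912, 1042, 965 and 907 CPM in arterial-side cells (1.19 ± 0.15, edgeR adjusted p = 0.0123) and 475, 487, 238 and 580 CPM in Nr2f2-positive cells (2.24 ± 0.12). Each source of members lay above every source of arterial-side cells, a gap found in 6.89% of all genes tested. Each also lay above every source of Nr2f2-positive cells, for which no such share was computed. Of the S phase and G2 and M phase lists, 2 and 1 of 20 genes were lower than in arterial-side cells and none was higher. Of all genes tested, 8.57% were lower. In each list 19 of 20 were lower than in Nr2f2-positive cells (medians -0.93 and -1.24), against 17.2% of all genes. Nr2f2-positive cells were deeper (median 84462 against 28779 UMIs), and the Nr2f2 limit counts raw UMIs. With the gate applied to thinned cells, the G2 and M phase list of members summed to 1727, 1604, 2340 and 2013 CPM. With the main gate it summed to 994, 1173, 1800 and 1912 CPM. The part of depth was not tested.

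**Figure D3:**
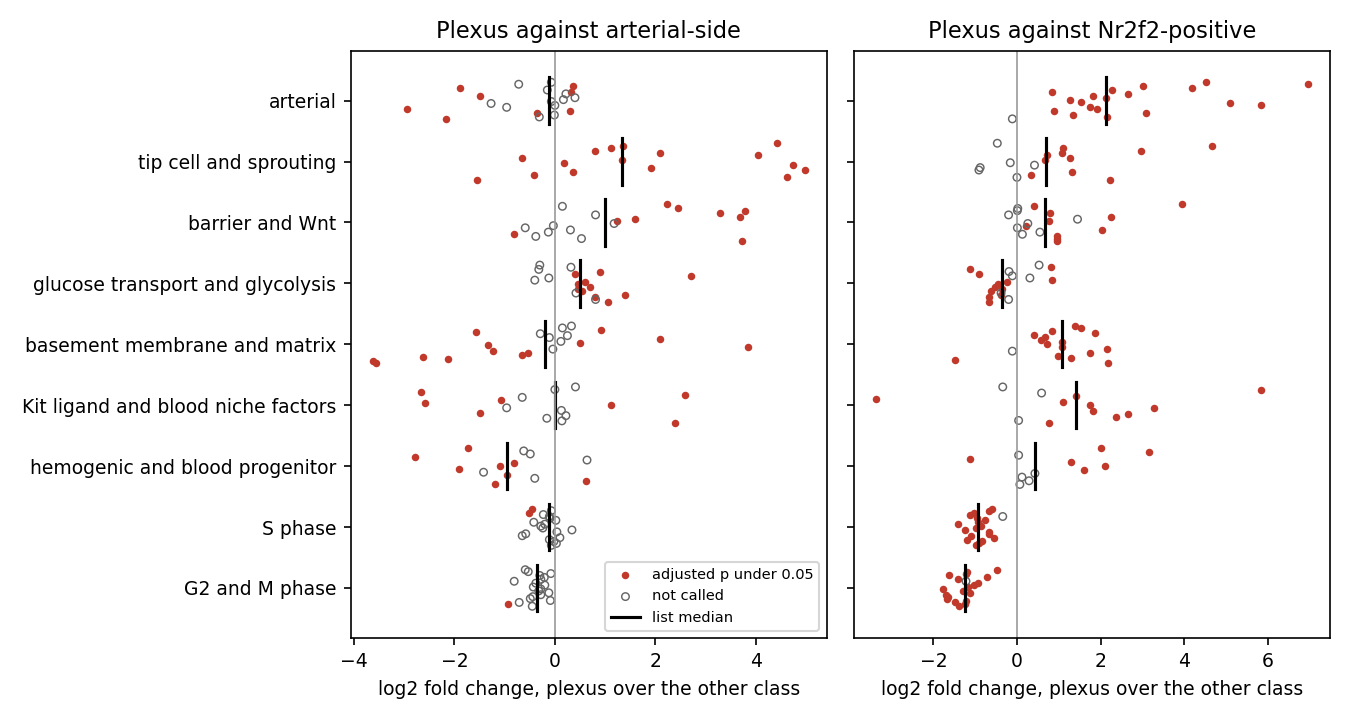
Log2 fold change of the tested genes of 9 lists in members against arterial-side cells (left) and against Nr2f2-positive cells (right), with 1 point a gene, filled where the edgeR adjusted p is under 0.05, and a bar at the list median. Most tip cell genes lie to the right in both panels (medians 1.34 and 0.71), the glycolysis list changes side (0.51 and -0.36), and arterial genes spread around 0 on the left and lie to the right on the right (-0.11 and 2.14).

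Against Nr2f2-positive cells, 3219 of 9311 genes (34.6%) were called, 1613 (17.3%) higher in members and 1606 (17.2%) lower. With the gate applied to thinned cells 595 were called, 459 higher and 136 lower. These cells were few, 9 to 39 a source, and deeper, and the rule gave them no limit on the scores. The venous gene Nr2f2 set the split, so calls of arterial and venous genes describe it and are no independent evidence of a cell type. Of 20 arterial genes, 19 were higher in members and 0 lower (median 2.14), with Gja5 at 0.678 to 18.4 CPM in Nr2f2-positive cells (6.97 ± 0.62, edgeR adjusted p = 0.00401) and Cxcl12, the ligand of Cxcr4, at 0 to 1.11 CPM against 36.9 to 66.9 CPM (5.84 ± 0.33). Of 17 matrix genes 15 were higher and 1 lower, and of 16 tip cell genes 10 were higher and 0 lower. Lower in members were the venous and lymphatic gene Nrp2, at 32.2, 15.8, 51.1 and 24.2 CPM against 259, 199, 180 and 221 CPM (-2.80 ± 0.31), Aplnr (-2.51 ± 0.27) and Bmp4 (-3.38 ± 0.26). CD44, on which the cells were sorted, was transcribed in members at 55.3, 63.2, 36.3 and 41.8 CPM and in Nr2f2-positive cells at 2.21 to 11.3 CPM.

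Against all 584 remaining cells at the Cdh5 limit, 4751 of 11158 genes (42.6%) were called, 2420 (21.7%) higher in members and 2331 (20.9%) lower. The remaining cells included 191 with UMIs of both Gfi1 and Neurl3, genes of the endothelial-to-hematopoietic transition, which the rule kept out. Of 18 genes of the hemogenic and blood progenitor list, 17 were lower in members and 1, Lmo2, was higher (0.44), with a median of -2.88. None of the 18 was in the rule, but the rule removed cells that express them. Against Nr2f2-positive cells the same list had 5 of 11 tested genes higher and 1 lower (median 0.43), against 17.3% and 17.2% of all genes. Runx1, the master factor of that transition, was at 9.65, 5.68, 12.2 and 3.52 CPM in members and at 114, 83.3, 134 and 89.6 CPM in the remaining cells (-3.73 ± 0.15, edgeR adjusted p = 1.58e-13). It was also lower than in arterial-side cells, which had 19, 31.8, 38.5 and 17.9 CPM (-1.73 ± 0.25). Highest by fold were Msx1, a homeobox gene (3.18 ± 0.25), 8430408G22Rik (3.15 ± 0.31), Mal (3.07 ± 0.22), Prdm1 (3.04 ± 0.22) and Rgs16, a regulator of G protein signalling (3.01 ± 0.19). Lowest were Hlf, a stem cell transcription factor gene (-5.49 ± 0.23), Lmo1, Sfrp2 and Myb (-4.88 ± 0.23).

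Genes of the blood niche list other than Kitl were called in both directions. Kit, the receptor gene, was at 25.1, 15.8, 27.4 and 17.6 CPM in members and at 76.0, 37.2, 78.2 and 52.5 CPM in the remaining cells (-1.47 ± 0.11). The remaining cells included the 191 with both Gfi1 and Neurl3, which the rule kept out. The study reports Kit in its cells of that transition, and the part of the rule in the Kit difference was not tested. Tgfb2, a secreted growth factor gene, was at 55.9, 53.7, 79.3 and 69.5 CPM in members against 9.75, 14.1, 18.8 and 9.77 CPM in arterial-side cells (2.39 ± 0.17). In the list as a whole, 3 of 15 tested genes were higher and 4 lower than in arterial-side cells (median 0.00). Of all genes in that comparison, 11.8% were higher and 8.57% lower. Angpt1, a ligand of Tek, was among the lower ones of the list (-2.67 ± 0.43). Of 12 tested genes of the IGF and IGFBP list, Igf1 was higher (1.35) than in arterial-side cells and Igf2r, Igfbp5 and H19 were lower. These counts are to be read against the same shares. The rule gene Igfbp3 and the marker Igfbp7 do not enter that list. Thpo and Il6 had 0 UMIs in members.

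The macrophage list summed to 9.65 to 30.3 CPM, the granulocyte and monocyte list to 6.30 to 12.3 CPM and the erythroid list to 15.2 to 28.6 CPM, with the globin genes Hba-a1, Hba-a2, Hbb-bt and Hbb-bs at 0 UMIs. The megakaryocyte list summed to 13.7 to 16.1 CPM in replicate 1 and 85.9 to 89.3 CPM in replicate 2, in both genotypes. The epithelium and neural list summed to 172, 158, 214 and 150 CPM in members and to 131 to 154 CPM in arterial-side cells. Most of this was Nes, an intermediate filament gene that endothelium also expresses, at 144 to 206 CPM in members (1.21 ± 0.10 against arterial-side cells), while Krt18, a keratin gene, was at 6.60 to 13.5 CPM and lower than there (-2.81 ± 0.18). Cdh1 had 0 UMIs in members, and Sox2 and Elavl3 were at 0 in 3 of 4 sources. Of the pan-endothelial genes, 15 of 18 were higher than in the remaining cells and 1, Tek, was lower (-0.40 ± 0.09). Of all genes in that comparison, 21.7% were higher and 20.9% lower. Against arterial-side cells 4 of the 18 were higher and 6 lower, against 11.8% and 8.57% of all genes. The list summed to 7878, 9540, 6856 and 9631 CPM in members and to 9378, 10251, 8554 and 11750 CPM in arterial-side cells.

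Members with and without an Esm1 UMI after thinning were compared within each source (14, 18, 22 and 15 cells with Esm1, 43, 28, 56 and 46 without). Of 8272 genes, 7 (0.0846%) were called at an adjusted p under 0.05, 6 (0.0725%) higher and 1 (0.0121%) lower in cells with Esm1, and 887 had an unadjusted p under 0.05. The arterial connexin 43 gene Gja1 was at 164, 209, 135 and 190 CPM with Esm1 and at 92.5, 93.9, 67.5 and 114 CPM without (0.91 ± 0.13, edgeR adjusted p = 0.0193). The chemokine scavenger receptor gene Ackr3 was at 36.9, 72.3, 9.84 and 103 CPM with Esm1 and at 10.4, 23.0, 6.43 and 27.5 CPM without (1.60 ± 0.25, edgeR adjusted p = 0.0215). Hey1 was higher too (0.83 ± 0.14), as were Sat1 (0.67 ± 0.10) and Tubb2b (0.71 ± 0.12), and Gm13889 was lower (-1.70 ± 0.27). Each was higher, or for Gm13889 lower, within all 4 sources. The count of 6 also holds Igfbp3, a gene of the rule, for which the test is void. Members were chosen on the sum of Esm1 and Igfbp3 with Kitl and Vwa1. The rule also lets a member with more Esm1 UMIs have a higher arterial score. Genes that vary with that score, such as arterial genes, can therefore differ through the rule. The part of the rule in these calls was not tested. Without control replicate 1 no gene was called, and without cKO replicate 1 the count was 108.

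The share of members among cells at the Cdh5 limit was higher in cKO than in control in both replicates. It was 26.9% in control and 33.9% in cKO cells of replicate 1 (exact binomial 95% intervals 21.2 to 33.1 and 28.0 to 40.2) and 25.7% and 33.2% in replicate 2 (19.5 to 32.8 and 26.4 to 40.5). The mean difference was 7.23 percentage points (7.01 and 7.45 in the replicates). The SD between replicates was 0.513 in cKO and 0.830 in control (n = 2). Each SD is of 2 values and lies below the counting error that the intervals show, so it does not measure the precision of a share. A two-sided exact permutation test gave p = 0.333, the smallest that 2 against 2 allows. Over all deposited cells the shares were 18.3%, 6.15%, 24.1% and 8.56%, again higher in cKO within each replicate. There the mean difference was 4.14 points, with an SD of 11.0 in cKO and 8.57 in control (exact permutation p = 0.667). These are shares of a CD31 and CD44 sort, so the other classes and the sort gate also set them.

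**Figure D4:**
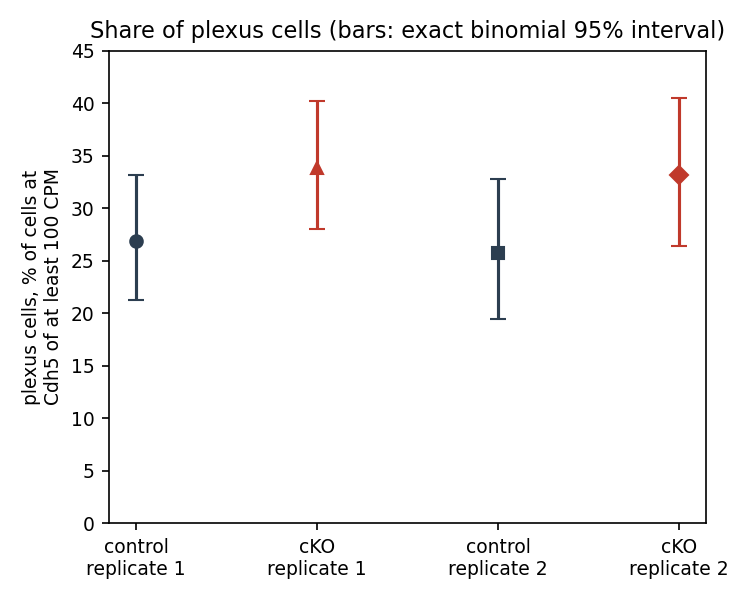
Members as a percentage of cells at Cdh5 of at least 100 CPM in each source, with exact binomial 95% intervals. Both cKO sources, at 33.9% and 33.2%, lie above both control sources, at 26.9% and 25.7%, and the intervals overlap within each replicate.

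Between genotypes, no gene of 9254 tested was called within members when the 4 sums were compared without a block, by edgeR or by DESeq2 (0%, and 185 genes had an unadjusted p under 0.05). With the replicate as a block, which the shared pools warrant, 66 genes (0.713%) were higher in cKO and 58 (0.627%) lower. With 4 sums, that fit has little replication for each gene, and its p-values lean on variance shared across genes. Leaving out 1 source without the block gave 8, 11, 3 and 56 calls in the usual order of sources, with the lone source assumed to vary like the pair. Sex cannot be told apart from genotype in replicate 1, where nearly all cKO members held chromosome Y transcripts and no control member did. In replicate 2 the genotypes differed in Xist, detected in 45 of 46 control and 26 of 61 cKO members. The part of that difference was not tested.

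Genes of mitosis were higher in cKO members in both replicates. The 20 genes of the G2 and M phase list summed to 994 and 1173 CPM in control and 1800 and 1912 CPM in cKO members, a ratio of 1.81 in replicate 1 and 1.63 in replicate 2. All 20 were higher in cKO within both replicates, against 27.6% of all genes tested, and for 16 of them both cKO values lay above both control values, against 12.7%. Genes of 1 cell cycle phase rise and fall in the same cells, so they do not count as 20 separate results. Without the block 0 of 20 were called (median 0.80), and with it 14 were, all higher. Ube2c, which drives exit from mitosis, was at 84.9, 189, 224 and 334 CPM (with the block 1.07 ± 0.14, edgeR adjusted p = 7e-09, and without it 1.01 ± 0.37, edgeR adjusted p = 1.0). Aurkb, a mitotic kinase gene, was at 19.3, 15.8, 47.8 and 38.3 CPM (1.28 ± 0.25 with the block) and Mki67, which marks cycling cells, at 89.4, 35.4, 148 and 71.3 CPM (0.82 ± 0.16). With the gate applied to thinned cells the summed ratios were 1.35 and 1.25, and with Igfbp3 left out of the score, a setting chosen after seeing the data, 2.86 and 1.29. In thinned cells Mki67 was detected in 10.5% and 8.70% of control members and 28.2% and 21.3% of cKO members.

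In arterial-side cells the same 20 genes were mostly lower in cKO. They summed to 2493 and 2015 CPM in control and 1692 and 1587 CPM in cKO cells, and 17 of 20 were lower in cKO in both replicates, against 26.0% of the 9254 genes in these cells. Of the S phase list, 16 of 20 were lower there in both replicates. In all remaining cells the direction differed between replicates, with ratios of 1.18 and 0.818. No gene of the list was called for a difference between members and all remaining cells (median 0.85, edgeR), and members were not tested against arterial-side cells for it. The S phase list moved less in members, with 12 of 20 genes higher in both replicates and summed ratios of 1.28 and 1.10. The cyclin-dependent kinase inhibitor gene Cdkn1c was lower in cKO members in both replicates (-0.45 ± 0.10 with the block, edgeR adjusted p = 0.00158).

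**Figure D5:**
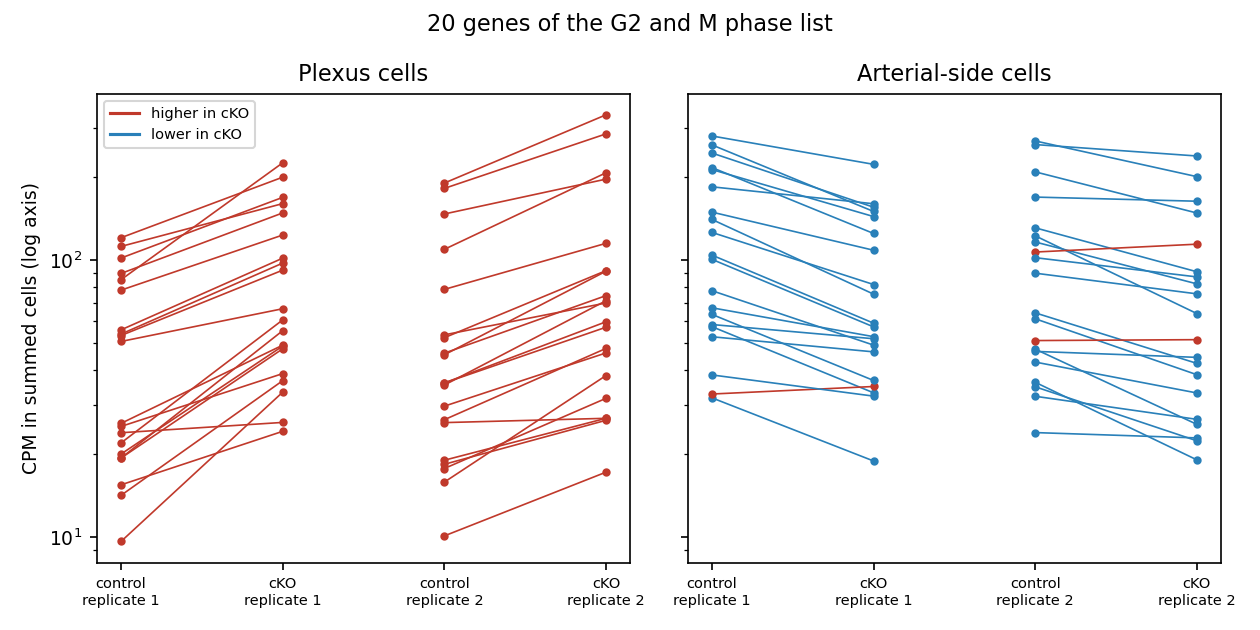
Level of the 20 genes of the G2 and M phase list (CPM, log axis) in control and cKO cells of each replicate, for members (left) and arterial-side cells (right), with 1 line a gene, red where cKO is higher. All 40 lines rise in members, and 37 of 40 fall in arterial-side cells.

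Among the other genes called with the block, several arterial and matrix genes were lower in cKO members. Without the block none of these was called. The sums of both lists fell mostly in replicate 1. The arterial list summed to 5284 CPM in control and 3013 CPM in cKO members of replicate 1, and to 5412 and 5240 CPM in replicate 2. The matrix list summed to 8377 and 6161 CPM in replicate 1, and to 8948 and 8447 CPM in replicate 2. Gja5 was at 852 and 696 CPM in control and 461 and 491 CPM in cKO members (-0.71 ± 0.11, edgeR adjusted p = 7.91e-06), and Efnb2, encoding the arterial ligand ephrin-B2, at 379 and 282 against 230 and 240 CPM (-0.49 ± 0.13, edgeR adjusted p = 0.0183). In the arterial list 2 of 19 genes were called lower and 0 higher, and 13 were lower within both replicates, against 25.3% of all genes. In the matrix list 5 of 17 were called lower, among them Col4a1 (-0.38), Col4a2 (-0.42) and Col18a1 (-0.47), the collagen chains of vascular basement membrane. Gja4 was not called (-0.41 ± 0.51): replicate 1 gave 1435 against 746 CPM and replicate 2 gave 1430 against 1576 CPM. The tip cell gene Apln was higher in cKO members, at 7.72 and 3.79 against 27.4 and 9.24 CPM (1.62 ± 0.39, edgeR adjusted p = 0.00703).

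Dlk1, a paternally expressed gene for a Delta-like protein, had the largest decrease (-3.27 ± 0.37 with the block, edgeR adjusted p = 3.08e-11). It was at 18.0 and 46.1 CPM in control and 1.11 and 5.72 CPM in cKO members. These levels came from 117 UMIs in 14 of the 251 members, 28 in control replicate 1 and 73 in control replicate 2, so a few cells set them. Whether the genotype difference itself differs between members and the remaining cells was tested by an interaction term with the source as a block. Of 11158 genes, 5 (0.0448%) were called, and 494 had an unadjusted p under 0.05. The interaction, the log2 cKO difference in members minus that in remaining cells, was positive for 1 (0.00896%) and negative for 4 (0.0358%). Leaving out cKO replicate 1 gave 81 calls, leaving out cKO replicate 2 gave 32, and DESeq2 gave 0.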

How the data were processed

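CD31 and CD44 double positive cells were profiled by 10x droplet RNA-seq in 2 replicates of 678 and 1461 cells. The deposited UMI counts were made by the authors with Cell Ranger 5.0.1 on mm10 (submitters' processing notes), and only cells with a singlet hashtag were kept. The gene annotation is not given in the sources used here. The limits the methods state (over 1800 genes, over 6000 UMIs, under 5% mitochondrial) were not met by 101 deposited cells, 28 of them members, which were kept and left out only in an alternative. The count files list 24543 genes. Counts per cell are given as deposited, and hashtags of the deposited cell table gave the genotype.

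Members and gene lists were chosen with earlier results of these data known. Gfi1 or Neurl3 at 0 was read as at least 1 of them at 0. Counts were summed by source and class and tested with edgeR 4.0.16 (filterByExpr, TMM, quasi-likelihood, Benjamini-Hochberg, 0.05) in R 4.3.3, with the source as a block between classes. The genotype comparison had no block in the main test. Same-numbered sums deviated together (r = 0.454 over 9254 genes), the 2 genotypes of a replicate having shared a pool, so the fit with the replicate as a block is given beside it. The cells of a source are not replicates, and the 4 sums measure only the spread between sources. Named were the 10 genes with the largest change in each direction at an adjusted p under 0.05 a mean of at least 20 CPM in the higher class and 1 direction in all 4 sources, up to 20 genes called for genotypes or the interaction, Nupr1, and members of the lists. The genes named for genotypes came from the fit with the block, after its values were seen. Rule genes and the given markers stayed in the fits and in counts over all genes, but no test of them is reported. For detection, cells were thinned to 6000 UMIs (seed 1), which 9 members did not reach. Scrublet (scanpy 1.11.5, Python 3.11.15) called 6 doublets and 0 members, too few to count as a working caller. Exact intervals and permutations used scipy 1.17.1. DESeq2 1.42.0, RLE scaling, no filter, other gates and leaving out each source were the alternatives. The fits were tested on simulated data. Gene positions were matched by symbol in GENCODE M21 (GRCm38), and promoter sequences are from RefSeq (GRCm38.p6). No promoter of Vwa1 was matched. Results for some items are not reported here.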

Additional observations from a re-analysis of the deposited data

Results flagged for a closer look

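For 5 genes the difference between cKO and control cells itself differed between plexus cells and the remaining cells at the Cdh5 limit (edgeR interaction with the source as a block, log2 difference of plexus cells minus that of remaining cells). Dlk1 differed by -2.97 (edgeR adjusted p = 0.00474): plexus cells were at 18.0, 46.1, 1.11 and 5.72 CPM and remaining cells at 9.26, 37.2, 8.84 and 27.4 CPM in the order control replicates 1 and 2, cKO replicates 1 and 2. The plexus values rest on 14 cells with a UMI.

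Hapln1, a matrix link protein gene, differed by 1.05 (edgeR adjusted p = 0.0162), with plexus cells at 42.4, 37.9, 209.7 and 62.5 CPM and cKO replicate 1 far above the other sources. Dusp2, a phosphatase gene, differed by -0.86 (edgeR adjusted p = 0.0162), with remaining cells at 116, 112, 154 and 242 CPM and plexus cells at 133 to 187 CPM in every source. Pf4, a platelet gene, differed by -2.07 (edgeR adjusted p = 0.0162), and remaining cells of cKO replicate 2 stood alone at 316 CPM. Dennd5b differed by -0.93 (edgeR adjusted p = 0.0485), with remaining cells of cKO replicate 1 at 228 CPM against 76.7 to 96.9 CPM in the other sources. Nearly all cKO cells of replicate 1 carried chromosome Y transcripts, and the part of sex in these values was not tested.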

How the results depend on the processing

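With no replicate block, 2351 genes differed between plexus and remaining cells, 950 between plexus and arterial-side cells, 1765 between plexus and Nr2f2-positive cells, 0 in the interaction and 0 by Esm1. With the replicate block, 124 genes differed between genotypes. DESeq2 called 918 against arterial-side and 1840 against Nr2f2-positive cells, 0 in the interaction and 16 by Esm1. With no low-count filter, 5 genes differed between genotypes, 46 in the interaction and 237 by Esm1. Gates on thinned cells gave 595 against Nr2f2-positive cells, 0 in the interaction and 431 by Esm1. Requiring both Gfi1 and Neurl3 at 0 gave 21 in the interaction and 103 by Esm1, Nr2f2 at 0 gave 19 by Esm1, leaving out Scrublet doublets gave 3 in the interaction, and the score without Igfbp3, chosen after seeing the data, gave 0 in the interaction. Leaving out 1 source gave 1264 to 1726 against arterial-side cells, 3 to 56 between genotypes, 4 to 81 in the interaction and 0 to 108 by Esm1. The cause of these shifts was not tested.

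Of 7576 values of 547 single gene results, 6787 kept direction and side of the threshold, 777 lost significance and 12 turned. With the thinned gate these were, against remaining cells, Aplnr (1.47) and Nrp2 (0.79), against arterial-side cells Bgn (0.1), and against Nr2f2-positive cells Aldoa (0.07), Lamb1 (-0.28), Mycn (0.31), Pkm (0.06) and Tpi1 (0.07). Against remaining cells, Nr2f2 at 0 turned Kcne3 (-0.02), Pgam1 (-0.15) and Pgk1 (-0.03), and the score without Igfbp3 turned Aplnr (0.16). The difference in share stayed positive in all alternatives (3.77 to 9.66 points), with the exact p never under 0.333. The plexus depth of 1262 to 134847 UMIs a cell limits detection of genes with few UMIs.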

Other observations

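Positional genes also differed between plexus and arterial-side cells. Of 20 tested Hox genes, 1 was higher and 7 were lower in plexus cells (median -0.42, against -0.01 over all genes, of which 11.8% were higher and 8.57% lower). The higher one was Hoxd9 (1.17), and the lower ones included Hoxc9 (-1.63) and Hoxb9 (-1.15). Of 16 immediate-early genes, which respond to stimulation and also to cell dissociation, 6 were higher, among them Atf3 (1.28) and Junb (0.87), and 1, Klf4, was lower (-0.55), to be read against the same shares. The part of dissociation was not tested.

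In cKO replicate 2, 26 of 61 plexus cells held Xist UMIs and 0 held a chromosome Y UMI, so 35 held neither. In control replicates 1 and 2, Xist was detected in 54 of 61 and 45 of 46 plexus cells.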
